A study of Rattus norvegicus with 16 samples.

Results

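The genes described here are the amino acid transporter families of the solute carrier series, as measured in proximal femora of 4 inbred rat strains. They were chosen by name alone: every gene whose symbol on the array platform begins with Slc1a, Slc3a, Slc6a, Slc7a, Slc36a, Slc38a or Slc43a and a number. That gave 53 genes on 72 probe sets, out of 14217 genes with a single symbol, and each gene was represented by its probe set with the highest mean log2 signal over all arrays. In 29 of the 53 that mean reached the filter level, a signal of 174, which is the 40th percentile of all probe sets. The remaining 24 lay below it and were not tested. The name rule also takes in carriers of monoamines, taurine and creatine from the Slc6 family, and Slc7a6os, a gene named for lying on the opposite strand of Slc7a6, which is not a transporter.

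RNA came from 4-week-old animals of the strains Fischer 344 (F344), Lewis (LEW), Copenhagen 2331 (COP) and Dark Agouti (DA), with 4 arrays for each and 16 in all. The labels gave no treatment, allele, sex or pooling for any strain, and did not state whether each array stands for its own animal, which means that the p-values below describe scatter among these samples and may include technical scatter. A cross of F344 with LEW had placed a skeletal locus on chromosome 4, and expression there was the study's question. Every array had the same trimmed mean, with medians of 303 to 325, and precision is limited by having 4 arrays in a strain. Proximal femur pieces hold marrow and muscle beside bone: markers of osteoblasts (4 of 5 measured), cartilage (6 of 6), erythroid cells (5 of 6) and skeletal muscle (6 of 6) all passed the filter. All 6 kidney tubule markers and all 5 neuron markers were measured, and 0 of either list passed it. Of 5 glia markers 3 were measured, and all 3 passed it.

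Cells take up most amino acids through carriers that exchange them, or that couple their entry to sodium or protons. The Slc7 exchangers work as pairs, in which a light chain forms the transport path and a heavy chain, Slc3a1 or Slc3a2, brings it to the membrane. Slc3a1 pairs with Slc7a9 in kidney and small intestine to recover cystine and basic amino acids, and its loss in people causes cystinuria; it also pairs with Slc7a13. Slc3a2, the heavy chain of the CD98 antigen, pairs with Slc7a5, Slc7a6, Slc7a7, Slc7a8, Slc7a10 and Slc7a11. In bone, osteoblasts need glutamine, proline and other amino acids to make collagen, and in marrow, developing red cells need glycine to make heme.

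The DNA before the start sites of Slc3a1, Slc1a4 and Slc38a1 is shown because Slc3a1 had the largest strain difference of the family, and the others had their lowest mean in F344 and a TGATGNAAN sequence. Slc38a5 also had its lowest mean in F344 and is not shown. Each line gives the 250 bases before the annotated start, read 5′ to 3′ along the gene, from RefSeq on the assembly GRCr8 of the strain BN. They lie at chr6:15394750-15394999, chr14:98761563-98761812 and chr7:129681402-129681651, all on the minus strand. Capitals mark a TGACTCA sequence in Slc3a1, the core bound by AP-1 factors, and a TGATGNAAN sequence in the others, the form of the amino acid response element bound by ATF4.
Slc3a1: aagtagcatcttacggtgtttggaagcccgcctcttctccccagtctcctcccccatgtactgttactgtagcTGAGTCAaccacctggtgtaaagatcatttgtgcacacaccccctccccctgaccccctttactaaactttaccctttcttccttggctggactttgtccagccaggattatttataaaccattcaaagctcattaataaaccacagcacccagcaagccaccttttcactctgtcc
Slc1a4: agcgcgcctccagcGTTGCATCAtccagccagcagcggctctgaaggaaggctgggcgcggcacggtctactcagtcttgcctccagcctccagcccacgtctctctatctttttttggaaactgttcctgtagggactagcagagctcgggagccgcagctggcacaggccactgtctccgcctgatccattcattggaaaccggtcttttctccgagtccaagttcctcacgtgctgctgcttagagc
Slc38a1: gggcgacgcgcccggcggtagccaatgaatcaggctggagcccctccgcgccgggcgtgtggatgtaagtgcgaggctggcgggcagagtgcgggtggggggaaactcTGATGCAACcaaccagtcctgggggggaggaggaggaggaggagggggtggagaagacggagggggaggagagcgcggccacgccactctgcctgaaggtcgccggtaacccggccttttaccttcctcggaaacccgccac
The matches of Slc3a1 and Slc1a4 are on the opposite strand, so the printed letters are the reverse complement.

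Both strands of the 250-base windows were searched for 4 sequences, in the 41 family genes with a promoter entry, of which 9 passed the F-test over the strains. TGATGNAAN was found before 3 of the 41 (Slc1a4, Slc38a1 and Slc7a1), against 3.38% of all 33469 windows. TGACTCA was found before 4 (Slc3a1, Slc6a5, Slc6a14 and Slc6a17), against 4.05%. CACGTG, an E-box, was found before 7, among them Slc1a4, Slc43a1 and Slc7a5, against 5.59%. AGATAA, which erythroid regulators bind, was found before 0, against 10.3%. The family was counted by gene, while the shares count all windows, whether or not their gene was on the array. TGATGNAAN and TGACTCA share no match here, and CACGTG reads the same on both strands. These matches describe the reference letters of a strain not measured here, and were searched with the expression values known.

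Slc3a1, the cystine heavy chain, had the largest strain difference of the family. Its signals were 202, 220, 169 and 206 on the F344 arrays, and 1314, 1381, 1509 and 1272 on the LEW arrays. They were 1176, 1207, 1309 and 1305 in COP, and 1088, 1100, 1299 and 1300 in DA. All 4 F344 arrays thus lay close to the filter level, and every array of the other strains lay at least at 1088. The mean in F344 was 199 ± 21.5, against 1369 ± 104 for LEW, 1249 ± 67.5 for COP and 1197 ± 119 for DA (SD, n = 4). The log2 differences of F344 minus LEW, COP and DA were -2.78, -2.65 and -2.59 (SE 0.099 each), or 6.89-, 6.29- and 6.01-fold lower. In order, LEW was followed by COP and DA, and these neighbours overlapped, with log2 differences of 0.13 between LEW and COP and 0.066 between COP and DA. Slc3a1 was singled out because earlier results of these data had shown its F344 level, so these values are a description and carry no test. The family counts below include it, although its F344 level was already known. The gene rests on a single probe set. Whether strain variants lie under its probes was not tested, since probe sequences were not at hand. In RNA of a whole tissue, fewer cells of a type and less RNA per cell cannot be told apart.

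The light chains of Slc3a1 stayed below the filter level in every strain, so a matching pattern could not be tested in them. Slc7a9, the light chain that carries cystine, had signals of 129, 140, 85.7 and 53.1 in F344 and 120, 119, 135 and 161 in LEW. They were 146, 84.6, 69.8 and 148 in COP and 82.8, 158, 162 and 107 in DA. No array of Slc7a9 reached the filter level of 174, and the strains overlapped. Its log2 difference of F344 minus LEW was -0.48, and with no filter limma's adjusted p was 0.546. Slc7a13, a light chain for aspartate, glutamate and cystine, was dimmer still. It had signals of 43.3 to 72.7 in F344, 4.29 to 50.6 in LEW, 8.80 to 71.9 in COP and 5.11 to 46.0 in DA. Its log2 difference of F344 minus LEW was 1.96, opposite in sign to that of Slc3a1, with an adjusted p of 0.226 by limma with no filter. At such signals a fold depends on values near background. Levels of different probe sets are not compared, since probes differ in their response.

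**Figure D1:**
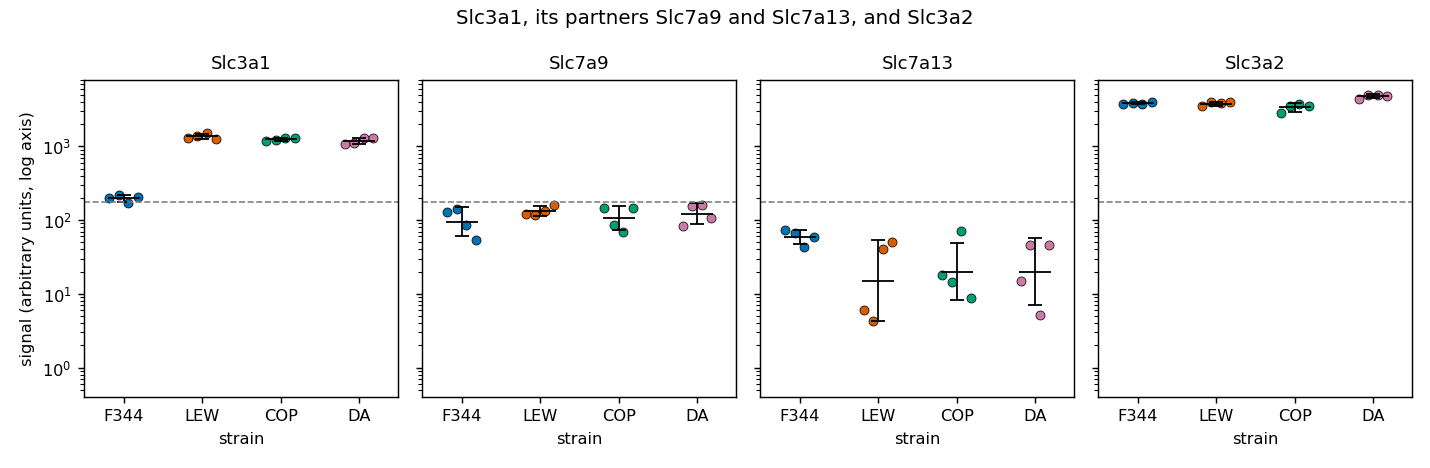
Signals on a log axis of Slc3a1, its light chains Slc7a9 and Slc7a13, and the other heavy chain Slc3a2, for 4 arrays (points) of each strain; horizontal bars are means of log2 signals with their SD, and the dashed line is the filter level of 174. Slc3a1 sits at 169 to 220 in F344 and at 1088 to 1509 elsewhere, while Slc7a9 and Slc7a13 stay under the line in all strains.

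No measured neighbour of Slc3a1 on chromosome 6 that passed the filter was called lower in F344. Of the 5 protein-coding genes on either side in the RefSeq table, 8 were measured and 5 passed the filter: Srbd1, Camkmt, Prepl, Ppm1b and Lrpprc. Prepl, a peptidase-like gene that overlaps Slc3a1 in that table, had signals of 959, 1202, 1091 and 1138 in F344 and 949, 828, 800 and 889 in LEW. F344 averaged 1097 ± 103, LEW 867 ± 66.2, COP 915 ± 71.8 and DA 930 ± 103 (SD, n = 4). Every F344 array lay above every LEW array, and the means differed by 0.34 on the log2 scale (SE 0.099, adjusted p by limma = 0.0249), in the direction opposite to Slc3a1. That call was lost without F344 replicate 2, 3 or 4 or LEW replicate 2 or 3, with adjusted p-values up to 0.0883. Ppm1b, a phosphatase on the far side of Slc3a1, had means of 5843, 6210, 5783 and 6308 in F344, LEW, COP and DA, and was not called (F-test adjusted p = 0.228 by limma). Camkmt, Srbd1 and Lrpprc were not called either, with F-test adjusted p-values of 0.218, 0.517 and 0.59. Six3, Abcg5 and Abcg8 lay below the filter.

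**Figure D2:**
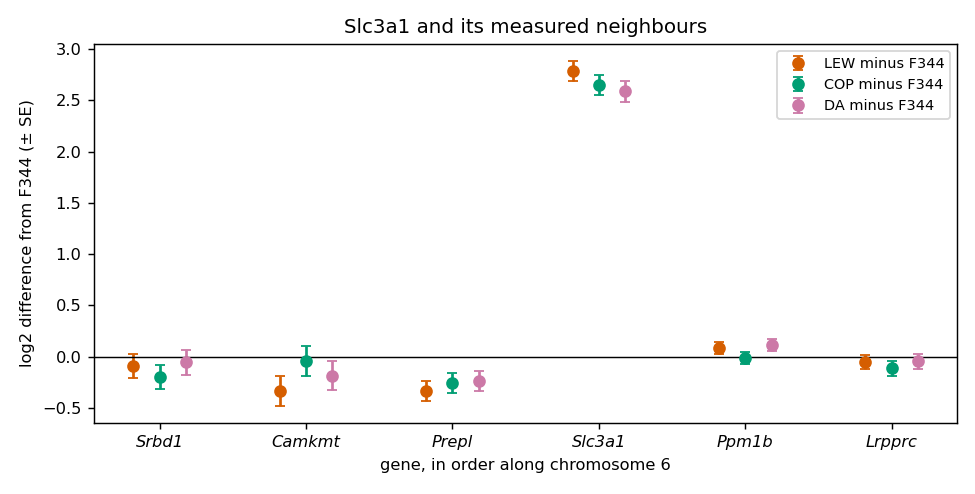
Log2 differences of LEW, COP and DA from F344, with their SE, for Slc3a1 and the 5 measured neighbours above the filter, in their order along chromosome 6. Slc3a1 was 6.01- to 6.89-fold above F344 in LEW, COP and DA, while Prepl lies below 0 and Ppm1b close to 0.

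The genes most like Slc3a1 over the 16 arrays lay on other chromosomes. They were Cyp4v3 (Pearson r 0.982), Cd93 (0.979), Pf4 (0.978), Tmbim4 (0.971) and Zfp347 (0.970), among the 10548 genes above the filter, with loci known only by a number skipped. The arrays share their strain, so such values mark genes that are low in F344 and alike elsewhere. Pf4, platelet factor 4, averaged 9485 in F344, against 28736, 24810 and 22533 for LEW, COP and DA. Cd93, a receptor of endothelial and myeloid cells, had 2170 in F344 and 4072 to 4527 in the others. Among the family, Slc1a4 (r 0.813), Slc38a1 (0.751) and Slc38a5 (0.629) followed Slc3a1 most closely. Markers of megakaryocytes, a list added after the values were seen, had summed signals of 21421 to 21808 in F344. They were 38725 to 49413 in LEW, 34880 to 42714 in COP and 33405 to 38073 in DA, from 5 of 7 genes measured. Pf4 made up much of that sum. It was named for its likeness to Slc3a1, so the low F344 sum follows in part from that choice. Single markers differed in order: Tubb1, a platelet tubulin, averaged 3916, 6100, 2880 and 3170 for F344, LEW, COP and DA. Against COP and against DA, 1 of the 5 was called higher in F344 and 3 lower, and against LEW 0 were higher and 2 lower. Of all genes 10.6%, 9.2% and 7.54% were called lower in F344 against COP, DA and LEW, and 10.4%, 8.11% and 6.96% higher. Both measured B cell markers, Cd79b and Vpreb3, summed to 2027 to 2310 in F344, 6895 to 7237 in LEW, 5409 to 6319 in COP and 2560 to 3977 in DA. The kidney tubule list, of cells in which Slc3a1 is best known, summed to 225 to 403 in F344, 251 to 335 in LEW, 256 to 433 in COP and 319 to 480 in DA over 6 genes. Macrophage markers, 5 of 5 measured, summed to 21844 to 23106 in F344 and 18708 to 22529 in the other strains. Neutrophil markers, 3 of 6 measured, summed to 106781 to 111529 in F344 and 111286 to 148053 in the other strains. The part of these cell types in the Slc3a1 values was not tested.

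Over the whole family, 10 of the 29 genes above the filter passed limma's F-test over the strains, with an adjusted p below 0.05. That is 34.5%, where 32.9% of all 10548 genes passed, so the family as a whole stood near the background. The 10 were Slc3a1, Slc6a4, Slc6a9, Slc3a2, Slc1a4, Slc38a5, Slc38a1, Slc7a6, Slc43a1 and Slc6a20a. Since the F344 level of Slc3a1 was already known, the count beside it is 9. Apart from Slc3a1, none of their strain means differed by more than a log2 value of 0.86. The other 19 had largest differences between strain means of 0.074 to 0.71.

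**Figure D3:**
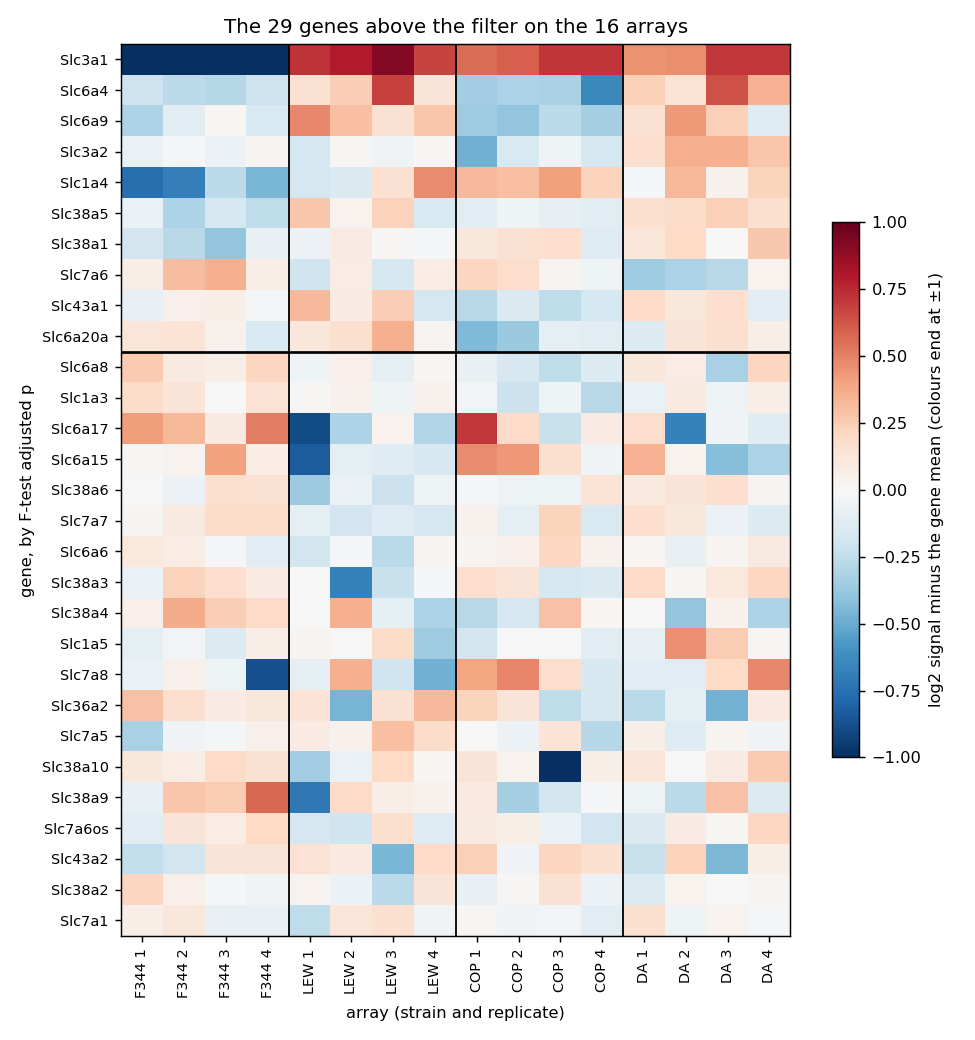
Log2 signal of the 29 family genes above the filter on each of the 16 arrays, minus the gene's mean, in order of the F-test's adjusted p; the horizontal line divides the 10 genes that passed from the 19 that did not, and vertical lines divide the strains. Slc3a1 is low on all 4 F344 arrays beyond the end of the colour scale, and Slc6a4 and Slc6a9 are low in F344 and COP.

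Between F344 and LEW, 5 of the 29 genes passed limma's adjusted threshold, all lower in F344: Slc3a1, Slc1a4, Slc6a4, Slc6a9 and Slc38a5. Of all genes 14.5% passed, 6.96% higher and 7.54% lower in F344. The family's median log2 difference was nevertheless 0.093, against 0.012 over all genes. In 9 of the 29 no F344 array lay within the LEW range or the reverse, against 19.3% of all genes. In some alternatives 1 gene was called higher in F344, beside 4 or 5 lower. These were no filter, no intensity trend, and leaving out LEW replicate 3, COP replicate 1 or DA replicate 2. Between COP and DA, which share no array with the first pair, 6 of 29 passed, where 12.2% of all genes did, 5.74% higher and 6.42% lower in COP. Arrays were separate for 5 of 29, against 16.7%. Slc6a4, Slc6a9, Slc38a5, Slc3a2 and Slc43a1 were lower in COP and Slc7a6 was higher, with a family median of -0.071.

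The other contrasts share arrays with these. For F344 against COP, 6 of 29 passed against 21% of all genes (10.4% higher, 10.6% lower), with Slc1a3, Slc6a8 and Slc6a20a higher and Slc3a1, Slc1a4 and Slc38a1 lower in F344. All 3 higher calls were lost without F344 replicate 1 and on averaging each gene's probe sets. Slc1a3 was also lost without F344 replicate 2 or 4 or COP replicate 2 or 4, Slc6a8 without COP replicate 3, and Slc6a20a in 14 of 25 alternatives. Arrays were separate for 6 of 29, against 27% of all genes. For F344 against DA, 8 passed against 17.3% (8.11% higher, 9.2% lower), of which 7 were lower in F344 and Slc7a6 was higher. Arrays were separate for 8, against 23.5%. For LEW against COP, 4 passed against 14.1% (6.41% higher, 7.72% lower), and Slc6a4, Slc6a9, Slc43a1 and Slc6a20a were all higher in LEW. Arrays were separate for 5, against 17.5%. For LEW against DA, Slc3a2 alone passed, lower in LEW, against 10.4% of all genes (4.65% higher, 5.77% lower). Arrays were separate for 3, against 13.4%.

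Slc1a4, a sodium-dependent carrier of alanine, serine, cysteine and threonine, was lowest in F344. Its signals were 259, 272, 365 and 319 in F344, 388, 396, 485 and 607 in LEW, 548, 538, 581 and 513 in COP, and 433, 549, 451 and 509 in DA. The highest F344 array lay under the lowest array of every other strain. F344 was lower than COP by 0.86 on the log2 scale (SE 0.15, adjusted p by limma = 2.39e-04) and than LEW by 0.62 (SE 0.15, limma adjusted p = 0.00649). Against DA the fall was 0.68 (limma adjusted p = 0.00255), and the differences among LEW, COP and DA did not pass.

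Slc38a1, a sodium-coupled glutamine carrier, also had its lowest mean in F344. Its signals were 1397, 1309, 1205 and 1500 in F344 and 1519, 1675, 1595 and 1572 in LEW. In COP they were 1708, 1760, 1779 and 1447, and in DA 1723, 1821, 1586 and 1911. The F344 arrays lay below those of LEW and DA and overlapped COP. F344 was lower than DA by 0.38 on the log2 scale (SE 0.084, adjusted p by limma = 0.00334) and than COP by 0.31 (limma adjusted p = 0.0131), and the 0.24 against LEW did not pass (limma adjusted p = 0.0682). The 0.24 passed under median centring (0.0464) and without F344 replicate 4 (0.0394), while the call against COP was lost without F344 replicate 3 (0.058). Another Slc38a1 probe set above the filter had means of 525, 522, 572 and 452 in F344, LEW, COP and DA and was not called (F-test adjusted p = 0.223 by limma), so the probe sets of this gene differ. With the mean of its probe sets above the filter, Slc38a1 was called against neither COP (0.124) nor DA (0.629). Slc38a2, the related carrier that cells raise when amino acids run short, had means of 7168, 6739, 6938 and 6802 in F344, LEW, COP and DA and was not called (F-test adjusted p = 0.752 by limma).

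Slc6a4, the serotonin transporter that loads platelets, was high in LEW and DA and low in F344 and COP. Its signals were 614, 590, 582 and 614 in F344 and 556, 568, 564 and 453 in COP, against 786, 840, 1138 and 772 in LEW and 833, 783, 1101 and 898 in DA. The groups F344 and COP on the one side and LEW and DA on the other did not overlap. COP was lower than DA by 0.75 on the log2 scale (SE 0.13, adjusted p by limma = 3.28e-04), and F344 lower than LEW by 0.54 (SE 0.13, limma adjusted p = 0.00559). Pf4 made up much of the summed megakaryocyte markers, and Tubb1 differed from that sum in order. The list thus gives no single order to set beside Slc6a4. The part of megakaryocytes in the Slc6a4 values was not tested.

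Slc6a9 is the glycine transporter that supplies heme synthesis in red cell precursors. On its brightest probe set the means were higher in LEW and DA than in F344 and COP, although F344 overlapped DA. Its signals were 1263, 1451, 1589 and 1412 in F344, 2189, 1929, 1739 and 1902 in LEW, 1222, 1196, 1305 and 1245 in COP, and 1738, 2106, 1849 and 1443 in DA. LEW lay above F344 and COP on every array, and DA above COP. LEW was higher than COP by 0.64 on the log2 scale (SE 0.10, adjusted p by limma = 9.89e-05), and F344 lower than LEW by 0.44 (SE 0.10, limma adjusted p = 0.00439). DA was above COP by 0.51 (limma adjusted p = 0.00149). The 2 other Slc6a9 probe sets above the filter did not pass the F-test over the strains. Their log2 differences of F344 minus LEW were -0.32 and -0.37, of the same sign. Those of COP minus DA were 0.32 and 0.24, of the opposite sign. DA had the lowest mean on both, and on 1 of them LEW was higher than DA by 0.53 (limma adjusted p = 0.0312). With the mean of the probe sets the COP against DA call was lost (adjusted p 0.959), as was that of F344 against DA, which was lost in 10 of 25 alternatives.

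Slc38a5, a glutamine, glycine and serine carrier, had signals of 2820, 2389, 2624 and 2481 in F344 and 3570, 3019, 3463 and 2649 in LEW. In COP they were 2724, 2860, 2789 and 2750, and in DA 3306, 3361, 3480 and 3306. DA lay above every F344 and COP array, and LEW overlapped both. F344 was lower than DA by 0.39 on the log2 scale (SE 0.079, adjusted p by limma = 0.00167) and than LEW by 0.29 (limma adjusted p = 0.0152). The call against LEW was lost without F344 replicate 2, LEW replicate 1 or LEW replicate 3, and in a fit of the 8 arrays of both strains (adjusted p up to 0.0644). COP was lower than DA by 0.27 (limma adjusted p = 0.0261), which was lost without COP replicate 1, COP replicate 4, DA replicate 3 or the intensity trend (adjusted p up to 0.069).

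Erythroid markers were set beside these genes. Their F344 sums overlapped those of LEW and DA, while the COP sums lay below both. The 5 measured of 6 (Alas2, Hbb, Slc4a1, Ahsp and Epb42) summed to 130569 to 150195 in F344 and 137868 to 143565 in COP. They summed to 147023 to 165907 in LEW and 150048 to 179866 in DA. Of the 5, 4 passed the F-test, where 32.9% of all genes did. Called lower were 2 in F344 against LEW, 2 in COP against DA and 1 in F344 against DA, and 0 were higher. Of all genes 7.54%, 6.42% and 9.2% were lower in these contrasts. In LEW 2 were called higher than in COP, against 6.41% of all genes. Between F344 and COP and between LEW and DA 0 were called, against 21% and 10.4% of all genes. Alas2, the erythroid enzyme that uses glycine to start heme synthesis, averaged 23847 in F344 and 22148 in COP, against 26888 for LEW and 26045 for DA. The part of erythroid cells in the values of Slc6a9, Slc38a5, Slc43a1 and Slc6a4 was not tested.

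Slc43a1, a carrier of large neutral amino acids such as leucine, was lowest in COP. Its signals were 8614, 9377, 9450 and 8975 in F344, 11330, 9609, 10748 and 8039 in LEW, 7468, 8199, 7627 and 8033 in COP, and 10371, 9807, 10171 and 8443 in DA. COP lay below every F344 and DA array and overlapped LEW through 1 array. LEW was higher than COP by 0.33 on the log2 scale (SE 0.085, adjusted p by limma = 0.0103), and COP was lower than DA by 0.30 (limma adjusted p = 0.0224). Slc6a20a, a proline carrier with a close copy in Slc6a20b, averaged 876 ± 106 in COP, against 1071 ± 93.5 for F344, 1170 ± 117 for LEW and 1084 ± 96.1 for DA (SD, n = 4). LEW was higher than COP by 0.42 (SE 0.10, limma adjusted p = 0.00682), and those strains did not overlap. The F-test calls of both genes rested on COP arrays: without COP replicate 1 neither passed, without COP replicate 2 Slc6a20a did not, and without COP replicate 3 Slc43a1 did not. The COP against DA call of Slc43a1 was lost without COP replicate 1 or 3, DA replicate 1 or 3, or the intensity trend (adjusted p up to 0.0683). The other Slc6a20a probe set above the filter had means of 425, 472, 390 and 518 in F344, LEW, COP and DA and was not called (F-test adjusted p = 0.179 by limma), with LEW minus COP at 0.30 (adjusted p = 0.255).

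Slc3a2, the heavy chain shared by most Slc7 exchangers, was highest in DA. Its signals were 4434, 5042, 5030 and 4749 in DA, against 3743 to 3990 in F344, 3474 to 3950 in LEW and 2807 to 3781 in COP. Every DA array lay above all other arrays. COP was lower than DA by 0.51 on the log2 scale (SE 0.077, adjusted p by limma = 1.01e-04), LEW by 0.34 (limma adjusted p = 0.00495) and F344 by 0.32 (limma adjusted p = 0.00633). Between F344 and LEW the heavy chain differed by 0.021 (SE 0.077, limma adjusted p = 0.896), so it did not follow Slc3a1.

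Of the light chains of Slc3a2, Slc7a6 was called. Slc7a6, an exchanger of basic and neutral amino acids, had signals of 1951, 2326, 2397 and 1968 in F344 and 1467, 1505, 1546 and 1920 in DA, with LEW at 1635 to 1983 and COP at 1810 to 2180. All F344 arrays lay above those of DA, where Slc3a2 was highest, and the log2 difference was 0.43 (SE 0.10, limma adjusted p = 0.0051). COP was higher than DA by 0.32 (limma adjusted p = 0.0385), although 1 DA array overlapped. The call against COP was lost in 8 of 25 alternatives: without COP replicate 1 or 2 or DA replicate 1, 2 or 3, with no filter, without the intensity trend and with a replicate block (adjusted p up to 0.123). Slc7a5, the leucine exchanger, had means of 478, 561, 488 and 497 in F344, LEW, COP and DA and did not pass (F-test adjusted p = 0.319 by limma). Slc7a7 had 754, 627, 697 and 706 (F-test adjusted p = 0.182 by limma), and Slc7a8 had 339, 368, 459 and 425 (F-test adjusted p = 0.264 by limma). Slc7a11, which imports cystine by another route than Slc3a1, lay below the filter with signals of 147 to 232 in F344 and 91.2 to 123 in LEW. These did not overlap, at a log2 difference of 0.71, and with no filter limma's adjusted p was 0.15. COP lay at 137 to 164 and DA at 91.6 to 196. Slc7a10 was below the filter as well, with 93.8 to 187 in F344 and 106 to 236 in LEW.

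**Figure D4:**
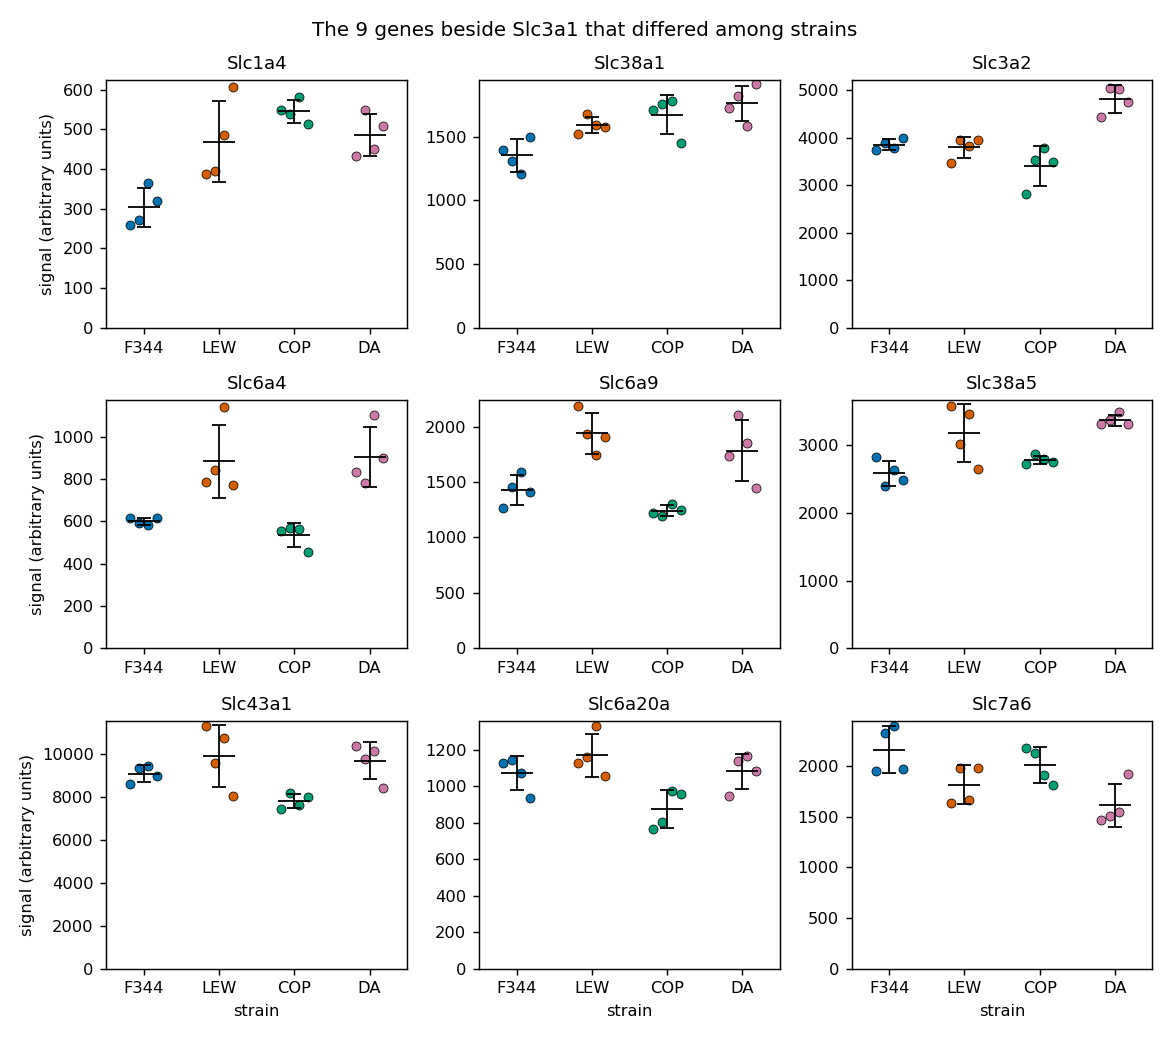
Signals of the 9 genes beside Slc3a1 that passed the F-test, for 4 arrays (points) of each strain with mean and SD; every axis starts at 0. Slc1a4 and Slc38a1 are lowest in F344, Slc3a2 is highest in DA, and Slc6a4, Slc6a9 and Slc38a5 have higher means in LEW and DA than in F344 and COP.

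By subfamily the numbers are small, beside 32.9% of all genes. Of the heteromeric exchangers and their heavy chains 3 of 6 above the filter passed the F-test, out of 11 genes. Of the Slc1 carriers 1 of 3 passed, with Slc1a3, a glutamate carrier known from glia, and Slc1a5, a glutamine carrier, not called (F-test adjusted p = 0.0718 and 0.242 by limma). Of the Slc38 carriers 2 of 8 passed, of Slc43 1 of 2 and of Slc36 0 of 1. Slc7a1, the main uptake route for arginine and lysine, was the only cationic carrier of 5 above the filter, at means of 2049, 2042, 1978 and 2084 in F344, LEW, COP and DA. It did not pass (F-test adjusted p = 0.883 by limma). Of the amino acid carriers in the Slc6 family 2 of 4 passed, and of those for monoamines, taurine and creatine 1 of 3. Slc6a8, the creatine carrier, had an F-test adjusted p of 0.0595 by limma.

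On chromosome 4, where the skeletal locus was mapped, lay 3 family genes. Slc6a6, the taurine carrier, averaged 2191 ± 147 for F344 and 2015 ± 194 for LEW (SD, n = 4). The log2 difference of 0.12 (SE 0.075, limma adjusted p = 0.317) did not pass. The GABA carriers Slc6a11 and Slc6a13 were below the filter, at 10.3 to 36.6 and 6.11 to 83.7 in F344 and 4.29 to 21.7 and 17.4 to 86.3 in LEW.

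The 24 genes below the filter had mean signals of 8.55 to 148 and no signal above 281. They include Slc6a3 for dopamine, Slc6a5 for glycine in nerve and Slc6a18, known from kidney. Slc1a1, a glutamate carrier named after its values were seen, was lowest in COP on both its probe sets, at means of 108, 85.4, 44.8 and 119 in F344, LEW, COP and DA on the brighter one. In Slc1a6, a glutamate carrier of the cerebellum, strain means differed over 4-fold, but its signals ran from 3.27 to 88.6 over all arrays and all strains overlapped. A low signal does not show that a gene is silent.

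Genes of the amino acid response, which ATF4 drives when uncharged tRNA builds up, were set beside the carriers. Of 34 above the filter 13 passed the F-test, where 32.9% of all genes did. For F344 against LEW 4 were higher and 1 lower, against COP 10 were higher and 1 lower, and against DA 8 were higher and 0 lower. The backgrounds for higher calls in F344 were 6.96%, 10.4% and 8.11% of all genes, and these contrasts share the F344 arrays. The list's median log2 differences were 0.093, 0.12 and 0.14, against 0.012, 9.32e-05 and -6.12e-04 over all genes.

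Trib3, a pseudokinase induced by ATF4, had signals of 331, 278, 342 and 409 in F344, against 170 to 228 in LEW, 144 to 188 in COP and 114 to 248 in DA. F344 lay above all other arrays, and the log2 difference to COP was 1.02 (SE 0.21, limma adjusted p = 0.00148). Chac1, which breaks down glutathione, had 1037, 1166, 1087 and 1371 in F344 and 413, 553, 681 and 749 in LEW, a difference of 0.99 (SE 0.16, limma adjusted p = 1.61e-04) without overlap. Atf3, a stress-induced transcription factor, had 556, 643, 612 and 673 in F344 and 138, 138, 266 and 326 in COP, a difference of 1.62 (SE 0.27, limma adjusted p = 1.61e-04). Nupr1, a stress-induced nuclear protein, differed in its order, with means of 9402 for LEW, 7729 for COP, 7305 for F344 and 6099 for DA.

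Asns, asparagine synthetase and a standard target of ATF4, was named after its values were seen. It had 7293, 7553, 7558 and 7452 in F344 and 4608 to 5672 in COP and DA, with LEW at 5728 to 7046. All F344 arrays lay above all others. The log2 difference to COP was 0.54 (SE 0.071, limma adjusted p = 9.83e-06). Ddit3, another ATF4 target also named afterwards, had means of 1298, 1216, 1324 and 1417 and was not called (F-test adjusted p = 0.13 by limma). Of the 3 family genes whose windows hold TGATGNAAN, Slc1a4 had its lowest mean in F344, Slc38a1 did so on its brighter probe set alone, and Slc7a1 was not called. Their relation to these response genes was not tested.

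**Figure D5:**
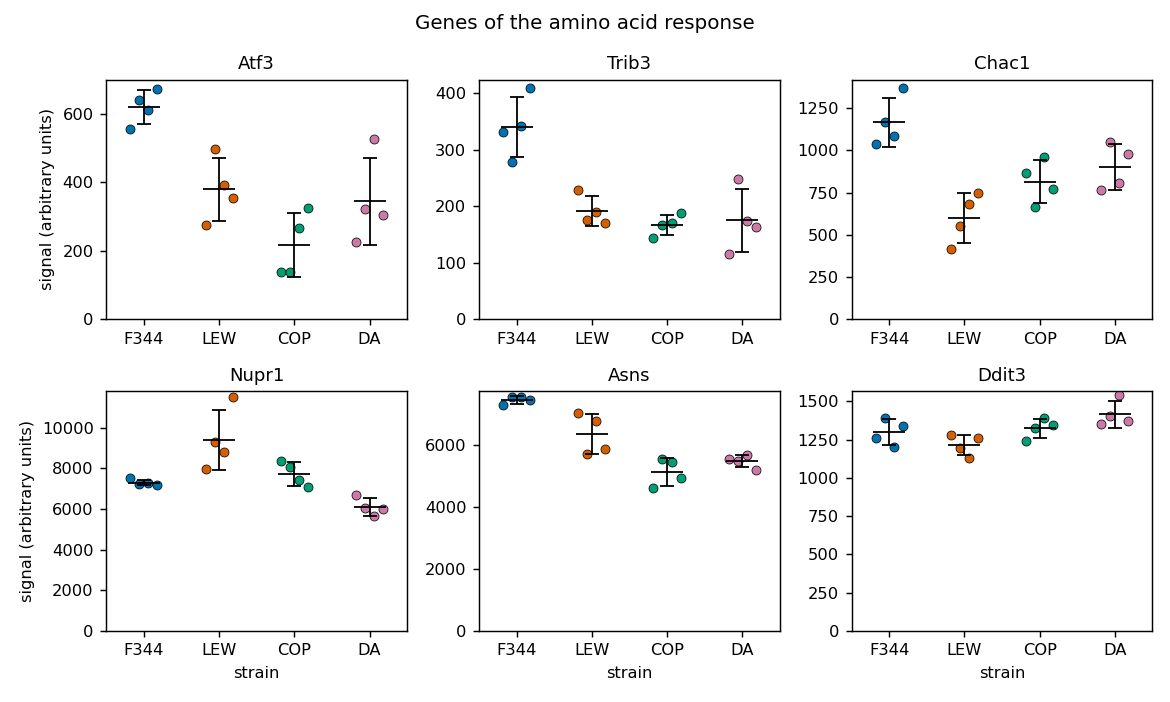
Signals of 6 genes of the amino acid response, for 4 arrays (points) of each strain with mean and SD; every axis starts at 0. Atf3, Trib3, Chac1 and Asns have their highest means in F344, Nupr1 in LEW and Ddit3 in DA.

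Genes of glutathione and cysteine supply, the uses of imported cystine, passed in 8 of 20 cases, where 32.9% of all genes did. Gclc, the catalytic chain of the enzyme that starts glutathione synthesis, had signals of 5039, 5524, 5802 and 5048 in DA and 2689, 2824, 2936 and 2960 in COP. F344 lay at 2971 to 3241 and LEW at 3216 to 4221. DA was above every other array, and COP minus DA was -0.91 (SE 0.075, limma adjusted p = 3.21e-08). Cdo1, which oxidises cysteine, averaged 7952 ± 325 in DA and 7117 ± 256 in F344, against 5135 ± 455 for LEW and 4125 ± 403 for COP (SD, n = 4). Anpep, a membrane peptidase that frees amino acids, rose in F344 against LEW by 0.79 (SE 0.090, limma adjusted p = 2.17e-06). Gclc, Cdo1 and the heavy chain Slc3a2 each had their highest mean in DA, where the Slc3a1 arrays overlapped those of LEW and COP.

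Among carriers outside the family rule 4 of 12 passed, where 32.9% of all genes did. The count was 2 without any 1 of F344 replicates 2, 3 and 4, LEW replicate 2, and COP replicates 1 and 4. Slc16a10, an aromatic amino acid carrier, had signals of 3089, 2994, 3275 and 2424 in LEW and 1747 to 1904 in F344, a fall of 0.68 in F344 (SE 0.099, limma adjusted p = 4.81e-05). Of genes by which mTORC1 senses amino acids 6 of 34 passed, and 3 without DA replicate 2, where 32.9% of all genes did. Rragd, a GTPase of that sensor, was lowest in COP, with 256, 182, 243 and 331 against 460 to 809 in the other strains. LEW minus COP was 1.49 (SE 0.15, limma adjusted p = 2.47e-07).

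Of genes of glutamine, glutamate and arginine metabolism 15 of 23 passed, against the same 32.9% of all genes. Arg1, arginase, had signals of 379, 629, 499 and 782 in LEW and 158 to 272 in the other strains, and LEW minus COP was 1.14 (SE 0.19, limma adjusted p = 1.60e-04). Nags, which makes the activator of the urea cycle, fell in F344 against LEW by 0.78 (SE 0.14, limma adjusted p = 4.95e-04). Bcat1, a transaminase of branched-chain amino acids, was higher in COP than in DA by 0.72 (SE 0.14, limma adjusted p = 0.00121). Ass1, which makes the precursor of arginine, was higher in COP than in DA by 0.67 (SE 0.087, limma adjusted p = 1.54e-05). These lists were chosen by function with earlier results of these data known, share a few genes such as Asns and Chac1, and are described by counts with no test of the list.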

How the data were processed

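Total RNA of proximal femora was hybridised to 16 Affymetrix arrays. The deposited intensity values are linear signals of the MAS5 algorithm, per the submitters' processing notes; its version, scaling target, detection calls and filters are not given in the sources used here. Each array had a 2% trimmed mean of 1000.3, so the authors' values were already scaled.

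Of 31099 probe sets, 57 controls were left out. Of the others 20826 had 1 symbol, 436 several (never used) and 9780 none, per the platform annotation. All 53 family genes matched RefSeq (GRCr8) by identifier, with 0 symbols changed. Signals under 1 (255 values) were set to 1 and log2 values taken with no pseudocount. Probe sets with mean log2 under the 40th percentile were left out (18625 kept). limma 3.58.1 (R 4.3.3) fitted 1 mean per strain, with moderation following an intensity trend; p-values were two-sided and Benjamini-Hochberg adjusted over kept probe sets (threshold 0.05), with 12 residual degrees of freedom. The fit was tested on simulated data. Percentages of all genes use the same representatives.

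The members and lists were chosen with earlier results of these data known. Named were Slc3a1 and the chains of both heavy chains, all genes passing the F-test (at most 25), genes below the filter with strain means over 4-fold apart, the 4 largest differences of each related list, measured neighbours of Slc3a1 and the 5 genes most like it; exceptions are stated. Slc3a1 neighbours below the filter are named only. Alternatives were quantile normalization, median centring, a pseudocount of 19.3, no filter, a 60th percentile filter, no trend, a replicate block, fits of 8 arrays, means of a gene's probe sets, and leaving out each array. Same-numbered arrays were checked for pairing: their deviations correlated at -0.17 to 0.088 over 24 pairs. Figures used matplotlib 3.10.9.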

Additional observations from a re-analysis of the deposited data

Results flagged for a closer look

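In 68 groups of 4 arrays (17 named family genes in 4 strains), 3 held an array far from the rest, where chance gives about 1 in 20. Slc6a4 had a signal of 453 on COP replicate 4, against 556 to 568 on the other COP arrays. Slc7a13 had 71.9 on COP replicate 3, against 8.80 to 17.8, all below the filter level. Slc7a8 had 210.02 on F344 replicate 4, against 370 to 402.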

How the results depend on the processing

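The 10 genes that passed the F-test over the strains numbered 8 to 11 when single arrays were left out. Without an intensity trend COP minus DA fell from 6 to 3 called genes, LEW minus DA went from 1 to 2, and with no filter LEW minus DA gave 2. With the mean of each gene's probe sets F344 minus COP fell from 6 to 2, and LEW minus DA gave 2. Leaving out single arrays gave 3 to 7 genes for COP minus DA and 3 to 7 for F344 minus COP; the low counts came without COP replicate 1 and without F344 replicate 1. Sign changes of F344 minus LEW fell on genes that were not called: Slc3a2, 0.021, was -0.00088 under median centring and -0.021 to 0.041 without single arrays, and Slc7a8, -0.13, ranged from -0.26 to 0.085 and Slc7a10, -0.14, below the filter, from -0.33 to 0.055 without single arrays. With the replicate number as a block, 11 genes passed the F-test, with Slc6a8 gained; the numbers did not pair the samples, since 4 of 16 arrays correlated best with their own number. Slc3a1 kept its direction in all 23 alternatives, at -2.83 to -2.67 for F344 minus LEW. Scaling by quantiles or medians shifted the median of all genes by at most 0.037. Dim probe sets limit the Slc7a9 and Slc7a13 comparisons.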
